A study of Drosophila melanogaster with 19 samples.

Results

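Hml, NimC1, eater, He, Sr-CI, Pxn and NimB4 are genes known from plasmatocytes, the phagocytic blood cells of Drosophila, and each was followed here through 1 named probe of an Agilent array. The 7 probes, out of 32162 on the array, were A_09_P153540 (Hml), A_09_P065406 (NimC1), A_09_P129550 (eater), A_09_P065081 (He), A_09_P170670 (Sr-CI), A_09_P029461 (Pxn) and A_09_P065391 (NimB4). They were measured in 6 groups of adult female flies, 10 days old and kept at 25 °C, on 19 one-colour arrays. In c564>nub-RB flies the c564-Gal4 driver, active in fat body, blood cells and other tissues, drove UAS-nub-RB, the transcript of the Nub-PB isoform of the POU transcription factor Nubbin. In c564>Pdm2-RB flies the same driver drove UAS-Pdm2-RB, from the neighbouring POU gene pdm2, and the c564>+ flies carried the driver with no UAS transgene in a w1118 background. The driver of these controls is spelled c546 in the genotype labels and c564 in the design text. Each genotype was dissected into "rest", the body without gut and head, and "gut", the digestive system. The c564>nub-RB rest group had 4 arrays and every other group had 3, with replicates of a group from independent pools of flies. Whether rest and gut of a genotype came from the same pools is not stated.

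Plasmatocytes make up most of the circulating and tissue-bound blood cells of the fly. They bind and engulf bacteria and dying cells through surface receptors of the Nimrod and scavenger receptor families, and they secrete clotting factors and components of the basement membrane. eater and NimC1 are phagocytic Nimrod receptors for bacteria, Sr-CI is a class C scavenger receptor, and He encodes Hemese, a surface glycoprotein of blood cells. NimB4 is a secreted Nimrod protein with a role in the clearance of dying cells, Hml encodes the large clotting protein hemolectin, and Pxn encodes peroxidasin, an extracellular enzyme that crosslinks collagen IV. In the RefSeq annotation the genes lay on 3 chromosome arms. NimB4, He and NimC1 are near neighbours on 2L, with only NimB5 between NimB4 and He, in a run of genes that also holds NimB1, NimB2, NimB3 and NimC2. Sr-CI, next to Sr-CIII, is on 2L as well, whereas Pxn and Hml are on 3L and eater is on 3R. The study asked what overexpression of Nub-PB did to gene expression, and to immune genes in particular.

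All values below are quantile-normalized processed signals, on a linear scale in arbitrary units unless a log2 scale is named, and a level of 1 probe cannot be set against that of another. The median raw signal of an array lay between 35.3 and 245 and no spot was saturated. Each of the 7 probes was well above background on all 19 arrays, apart from He, which missed on 1 gut array of c564>+. nub itself was read by 5 named probes, which did not behave alike. The probe A_09_P161260, named in the study's list of changed genes, gave 31.3 to 42.0 in c564>nub-RB rest against 3.98 to 13.9 in c564>+ rest, and 143 to 331 in c564>nub-RB gut against 44.7 to 88.6 in c564>+ gut, with no overlap in either tissue. The probes A_09_P048246 and A_09_P210005 were also higher in c564>nub-RB without overlap in both tissues, and A_09_P196920 was so in rest but overlapped in gut. Only the probe A_09_P004151 overlapped in both tissues. It gave 56.6 to 99.6 in c564>nub-RB rest against 54.6 to 127 in c564>+ rest, and 7579 to 11090 in c564>nub-RB gut against 5619 to 10220 in c564>+ gut. Which of these probes read the driven transcript was not settled from the files.

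In rest, all 7 genes had higher signals on every c564>nub-RB array than on any c564>+ array, and in gut this was true of none of them. Of all tested probes, 15% were higher in this way in rest and 14.3% in gut. The differences in rest were 2.42-fold to 5.79-fold, and the c564>Pdm2-RB arrays lay mostly between those of the other genotypes. Over c564>nub-RB and c564>+ the median log2 fold change of the 7 genes in rest was 2.05, against -0.05 over all 16486 probes tested. Since whole tissues were hybridised, more plasmatocytes and more RNA per plasmatocyte cannot be told apart in any of these values.

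**Figure D1:**
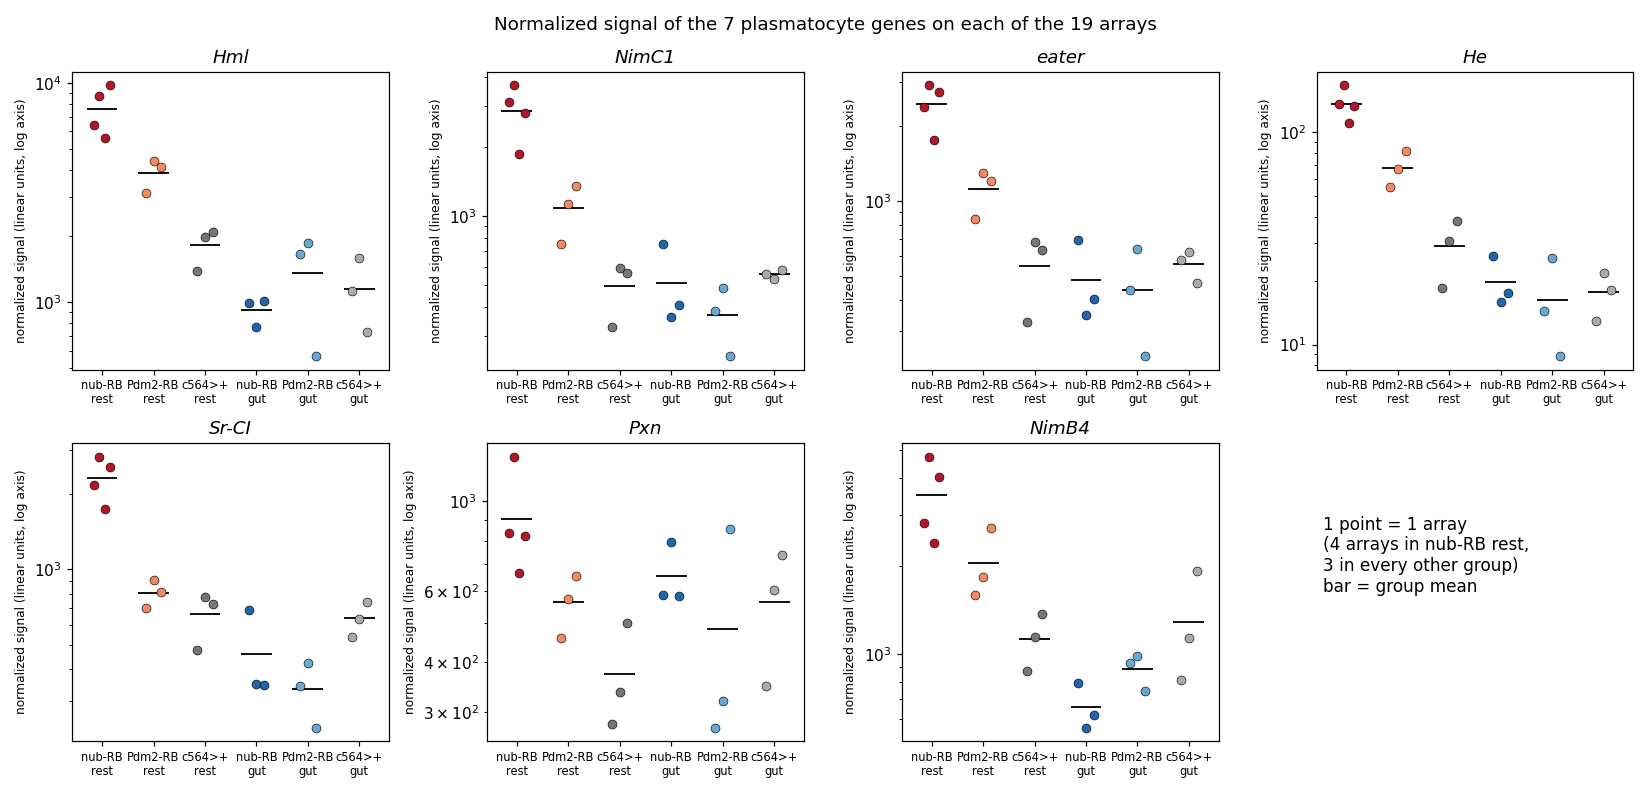
Normalized signal of each of the 7 genes (log axis, arbitrary units) on each of the 19 arrays, with the groups along the horizontal axis, a point per array and a bar at the mean of each group. c564>nub-RB rest has the highest mean for every gene, and its arrays lie above all c564>+ rest arrays.

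Of the phagocytic Nimrod receptors, NimC1 showed the largest change of the 7 genes. Its signals were 3115, 3687, 1863 and 2788 in c564>nub-RB rest and 329, 594 and 566 in c564>+ rest. The lowest c564>nub-RB array was still above the highest control array, and the difference was 2.53 on the log2 scale (SE 0.29, limma, adjusted p = 0.00269), a 5.79-fold change. eater had signals of 2395, 2916, 1756 and 2740 in c564>nub-RB rest, against 326, 683 and 633 in c564>+ rest. Here too no array overlapped, and the log2 fold change was 2.21 (SE 0.30, adjusted p = 0.00487). A second eater probe, A_09_P072216, gave 2.20 (adjusted p = 0.00631). For both receptors the c564>nub-RB array of replicate 3 was the lowest of its group.

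Sr-CI, the scavenger receptor, gave 2160, 2811, 1738 and 2549 in c564>nub-RB rest and 478, 777 and 730 in c564>+ rest. The groups stood apart, with a log2 fold change of 1.81 (SE 0.23, adjusted p = 0.0038), and its second probe, A_09_P030156, gave 1.78 (adjusted p = 0.00356). He, the blood cell glycoprotein, reached 136, 166, 111 and 132 in c564>nub-RB rest, against 18.5, 30.6 and 38.3 in c564>+ rest, with a log2 fold change of 2.27 (SE 0.26, adjusted p = 0.0026). A probe was tested only where the mean signal of at least 1 compared group was above 130, and He met this through c564>nub-RB rest alone, so its presence among the tested probes depended on that group being high.

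Hml, the clotting protein, had signals of 6428, 8658, 5618 and 9720 in c564>nub-RB rest and 1393, 1992 and 2086 in c564>+ rest. The lowest c564>nub-RB array stood well clear of the highest control array, and the difference was 2.05 on the log2 scale (SE 0.24, adjusted p = 0.00269). Other Hml probes gave smaller changes, with 1.52 for A_09_P066536 (adjusted p = 0.00751) and 1.71 for A_09_P167770 (adjusted p = 0.01004), the last just short of the 1% false discovery rate.

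NimB4 and Pxn, both secreted proteins, had the smallest differences of the 7 and did not pass the 1% rate. NimB4 had signals of 2805, 4737, 2399 and 4038 in c564>nub-RB rest, against 873, 1146 and 1367 in c564>+ rest, a log2 difference of 1.60 (SE 0.27, adjusted p = 0.011). Pxn gave 837, 1291, 665 and 820 in c564>nub-RB rest and 280, 337 and 501 in c564>+ rest, with a log2 difference of 1.28 (SE 0.27, adjusted p = 0.0254). Neither gene overlapped between the genotypes. A second Pxn probe, A_09_P202115, was near background and was not tested.

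Together 5 of the 7 genes were called higher in c564>nub-RB rest than in c564>+ rest, where 3.41% of all tested probes were called higher. An unadjusted limma p under 0.05 was found for all 7, and for 5546 of all 16486 tested probes in either direction. All 7 genes had no overlap between these genotypes, against 15% of tested probes with the c564>nub-RB arrays all higher. The 5 called genes were NimC1, eater, Sr-CI, He and Hml, or 4 of 6 without He, which entered the test only through c564>nub-RB rest. The methods' t-test, as rerun here on log2 signals with Benjamini-Hochberg adjustment, called 0 of the 7 and 86 of all 16486 tested probes. The study reported more changed probes than that in rest, so the rerun did not reproduce its count. The names of 6 of the 7 probes came from the study's own list of genes that changed between these genotypes, and that of Pxn from a match of fold changes to its list of changed immune genes, so these counts are not independent evidence of a direction and the name of the Pxn probe is less secure. Leaving out c564>nub-RB replicate 2 or 4, or c564>+ replicate 1, 3 or 4, left 2, 1, 3, 1 and 2 calls, while the log2 differences of the 7 genes stayed between 1.09 and 2.73 without any single array. The groups also shared scan dates, and within each of the 2 dates all 7 genes were higher in c564>nub-RB, with a median log2 difference of 2.05 at the first (1 array against 1) and of 2.08 at the second (3 against 2).

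Other tissue and cell type genes moved over the same arrays. Summed signals of 4 crystal cell genes were 24190 to 37000 in c564>nub-RB rest, 8386 to 15570 in c564>Pdm2-RB rest and 2596 to 6301 in c564>+ rest. Those of 4 muscle genes were 47510 to 118000 in c564>nub-RB rest, 13530 to 35750 in c564>Pdm2-RB rest and 7416 to 33170 in c564>+ rest. For 6 fat body genes they were 121400 to 265200 in c564>nub-RB rest, 62780 to 184600 in c564>Pdm2-RB rest and 25020 to 35540 in c564>+ rest. The sum of the fat body list was mostly Tsf1, at a mean of 159100 in c564>nub-RB rest against 28450 in c564>+ rest, and its member takeout (to) went the other way, at 432 in c564>nub-RB rest against 1336 in c564>+ rest. Summed digestive enzymes (22 genes) went the other way, with 5190 to 373900 in c564>nub-RB rest, 13790 to 95410 in c564>Pdm2-RB rest and 415700 to 1040000 in c564>+ rest, beside 4269000 to 5199000 over all gut arrays. How far the make-up of the dissected tissue entered the values of the 7 genes was not tested. No gene of the lamellocyte list (8 genes) or the ovary list (15 genes) could be found by name.

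In c564>Pdm2-RB rest the 6 tested genes were 1.24-fold to 2.18-fold above c564>+ rest, and 0 of them passed the 1% rate, where 0.511% of all tested probes were called higher. These arrays were compared with the same c564>+ arrays as c564>nub-RB. Hml had signals of 3128, 4408 and 4150 in c564>Pdm2-RB rest, all above the 1393, 1992 and 2086 of c564>+ rest, with a log2 difference of 1.10 (SE 0.21, adjusted p = 0.054). NimC1 gave 752, 1124 and 1354 in c564>Pdm2-RB rest against 329, 594 and 566 in c564>+ rest, a log2 difference of 1.12 (SE 0.31, adjusted p = 0.134). For eater the values were 846, 1298 and 1207 in c564>Pdm2-RB rest and 326, 683 and 633 in c564>+ rest, and the difference was 1.08 (SE 0.32, adjusted p = 0.161). NimB4 lay at 1596, 1842 and 2709 in c564>Pdm2-RB rest against 873, 1146 and 1367 in c564>+ rest, 0.85 on the log2 scale (SE 0.25, adjusted p = 0.16). He, not tested here because both groups were under the signal threshold, had 55.3, 66.8 and 81.2 in c564>Pdm2-RB rest and 18.5, 30.6 and 38.3 in c564>+ rest. These 5 genes did not overlap between the genotypes, a pattern seen with the c564>Pdm2-RB arrays higher in 13.7% of tested probes.

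Sr-CI and Pxn overlapped between c564>Pdm2-RB rest and c564>+ rest. Sr-CI had 704, 909 and 811 in c564>Pdm2-RB rest and 478, 777 and 730 in c564>+ rest, a log2 difference of 0.31 with a 95% interval of -0.21 to 0.83 (adjusted p = 0.497). Pxn had 460, 573 and 653 in c564>Pdm2-RB rest and 280, 337 and 501 in c564>+ rest, a difference of 0.62 (interval 0.02 to 1.22, adjusted p = 0.27). By unadjusted limma p-values, 5 of the 6 tested genes were under 0.05, all but Sr-CI. So were 2893 of all 16449 tested probes, in either direction.

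**Figure D2:**
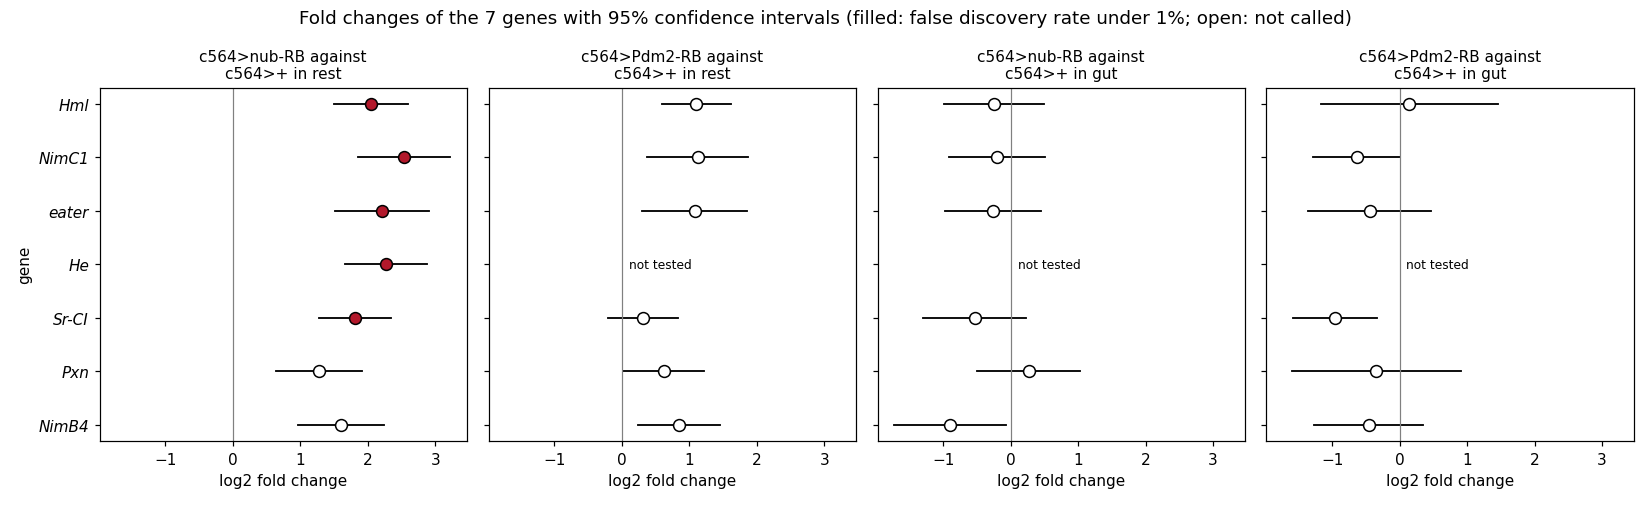
Log2 fold change of each of the 7 genes with its 95% interval, for c564>nub-RB and c564>Pdm2-RB against c564>+ in rest and in gut. In rest the c564>nub-RB values lie between 1.28 and 2.53 and those of c564>Pdm2-RB between 0.31 and 1.12, whereas in gut most intervals hold 0. He has no point where it was not tested.

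Set directly against each other in rest, c564>nub-RB was above c564>Pdm2-RB by at least 0.66 on the log2 scale for each of the 7 genes, and 1 of them, Sr-CI, was called, against 0.513% of tested probes called higher. Sr-CI had 2160, 2811, 1738 and 2549 in c564>nub-RB rest against 704, 909 and 811 in c564>Pdm2-RB rest, a 2.83-fold difference (SE 0.19 on the log2 scale, adjusted p = 0.00806). Its second probe, A_09_P030156, gave 1.24 (adjusted p = 0.013) and was not called. The call of the first probe did not hold without c564>nub-RB replicate 1, 2 or 4, or without any of the c564>Pdm2-RB replicates 1, 2 and 4, each of which left 0 calls. NimC1 (1.41, adjusted p = 0.0423), eater (1.13, adjusted p = 0.0411) and He (1.01, adjusted p = 0.0302) missed the 1% rate, as did Hml (0.95, adjusted p = 0.0701). He averaged 136 in c564>nub-RB rest and 67.8 in c564>Pdm2-RB rest, so here too it was tested only because c564>nub-RB rest was above the threshold. Pxn and NimB4 had differences of 0.66 (adjusted p = 0.17) and 0.75 (adjusted p = 0.185). For 6 of the 7 genes, all but NimB4, the arrays of these genotypes did not overlap, which was the case with c564>nub-RB higher for 8.97% of tested probes.

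In gut no gene was called in any of the 3 comparisons between genotypes, among 6 tested in each (He was under the threshold in every gut group). In c564>nub-RB against c564>+, 0.264% of tested probes were called higher and 0.234% lower. Hml had 996, 773 and 1008 in c564>nub-RB gut and 1120, 1586 and 735 in c564>+ gut, and these overlapped (log2 difference -0.25, adjusted p = 0.709). NimC1 had 755, 364 and 410 in c564>nub-RB gut against 557, 531 and 584 in c564>+ gut, a difference of -0.21 (interval -0.92 to 0.51). For eater, 693, 348 and 402 in c564>nub-RB gut stood beside 576, 621 and 466 in c564>+ gut (-0.26, interval -0.98 to 0.45). In NimC1, eater and Sr-CI alike, replicate 1 of c564>nub-RB gut was well above the remaining replicates. The intervals of NimC1, eater and Hml in gut lie wholly below those in rest.

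For NimB4 in gut, the c564>nub-RB arrays were all below those of c564>+. NimB4 had 797, 561 and 619 in c564>nub-RB gut and 816, 1137 and 1919 in c564>+ gut. The log2 difference of -0.90 (interval -1.73 to -0.06) did not pass (limma, adjusted p = 0.242). NimB4 was the only gene of the 6 with an unadjusted limma p under 0.05, which 3061 of all 16692 tested probes had. It was also the only gene without overlap, which 25.1% of tested probes showed. Sr-CI had 691, 349 and 347 in c564>nub-RB gut and 540, 634 and 740 in c564>+ gut (-0.53, adjusted p = 0.418). Pxn, with 585, 793 and 584 in c564>nub-RB gut and 349, 602 and 736 in c564>+ gut, differed by 0.27 (adjusted p = 0.694). He was near background, with 26.0, 15.8 and 17.5 in c564>nub-RB gut against 13.0, 21.8 and 18.0 in c564>+ gut, and overlapped.

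In c564>Pdm2-RB gut against c564>+ gut, with 0.157% of tested probes called higher and 0.187% lower, the log2 differences of the 6 tested genes were between -0.96 and 0.14. Sr-CI had the largest, with 344, 425 and 235 in c564>Pdm2-RB gut against 540, 634 and 740 in c564>+ gut (-0.96, interval -1.59 to -0.34, adjusted p = 0.14). NimC1 had 384, 485 and 245 in c564>Pdm2-RB gut against 557, 531 and 584 in c564>+ gut (-0.64, adjusted p = 0.29). These were the only 2 genes whose arrays did not overlap, as 24% of tested probes did not. Hml had 1650, 1869 and 567 in c564>Pdm2-RB gut against 1120, 1586 and 735 in c564>+ gut, and replicate 4 of c564>Pdm2-RB was the lowest array for Hml, NimC1, eater, He, Sr-CI and NimB4 but the highest for Pxn, at 856 against 275 and 320 in the other replicates. Between c564>nub-RB gut and c564>Pdm2-RB gut every gene overlapped and the log2 differences were -0.44 to 0.62, with 0.175% of tested probes called higher and 0.163% lower.

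Between the tissues, the genes were 1.36-fold to 8.08-fold higher in rest than in gut in c564>nub-RB flies, and in c564>+ flies no difference passed the test. In c564>nub-RB, 6 of the 7 genes were called higher in rest than in gut, where 35.8% of tested probes were called higher. He was tested only because c564>nub-RB rest was above the threshold, and without it 5 of 6 were called. The log2 differences were 3.01 for Hml, 2.80 for He, 2.53 for NimC1, 2.39 for eater, 2.38 for Sr-CI and 2.37 for NimB4, while Pxn, at 837, 1291, 665 and 820 in rest and 585, 793 and 584 in gut, overlapped (0.44, adjusted p = 0.141). In c564>Pdm2-RB, 3 of 6 were called higher in rest, NimC1 (1.55), Sr-CI (1.31) and NimB4 (1.18), with 37.9% of tested probes called higher. Hml (1.68, adjusted p = 0.0186) and eater (1.44, adjusted p = 0.0153) missed the 1% rate. In c564>+, 0 of 6 were called, with 36.1% of tested probes called higher. An unadjusted limma p under 0.05 was found for 0 of the 6, against 13162 of all 17509 tested probes. There Hml had 1393, 1992 and 2086 in rest and 1120, 1586 and 735 in gut (0.72, adjusted p = 0.0877), and the other 5 tested genes differed by -0.57 to 0.03. He, not tested in c564>+, had 18.5, 30.6 and 38.3 in rest and 13.0, 21.8 and 18.0 in gut, and overlapped. Quantile normalization set the median of all probes at 0.33 to 0.40 on the log2 scale between rest and gut, and scaling to the 75th percentile set it at 0.01 to 0.11, so small differences between the tissues are relative to that choice. Under that scaling no c564>Pdm2-RB gene was called, nor was any without c564>Pdm2-RB rest replicate 2 or gut replicate 1, and 1 was called without rest replicate 4.

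Whether the effect of nub-RB differed between the tissues was tested with a genotype by tissue term. All 7 estimates were positive, from 1.01 to 2.74 on the log2 scale, and 1 gene, NimC1, was called, against 0.557% of tested probes called higher. The term was 2.74 for NimC1 (SE 0.44, limma, adjusted p = 0.0096), that is, NimC1 had a log2 fold change of 2.53 in rest and -0.21 in gut. Hml (2.30, adjusted p = 0.0119), Sr-CI (2.35, adjusted p = 0.0113), eater (2.47, adjusted p = 0.0134), NimB4 (2.50, adjusted p = 0.0143) and He (2.11, adjusted p = 0.0159, again tested through c564>nub-RB rest alone) fell just short of the 1% rate, and Pxn was at 1.01 (adjusted p = 0.174). Leaving out single arrays gave 0 to 6 calls: 6 without c564>nub-RB gut replicate 1, and 0 without c564>nub-RB rest replicate 1, 2 or 4, c564>nub-RB gut replicate 3 or 4, or any array of c564>+. The same term for Pdm2-RB was 0.96 to 1.76 over 6 genes, with 0 called and 0.14% of tested probes called higher.

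Ordered by group mean, c564>nub-RB rest was first for all 7 genes, and its means were 7606 ± 1907 for Hml, 2863 ± 763 for NimC1, 2452 ± 512 for eater, 136 ± 22.7 for He, 2314 ± 468 for Sr-CI, 903 ± 270 for Pxn and 3495 ± 1082 for NimB4 (SD, n = 4). c564>Pdm2-RB rest was next for all but Pxn, with 3895 ± 677 for Hml, 1077 ± 304 for NimC1, 1117 ± 239 for eater, 67.8 ± 13.0 for He, 808 ± 103 for Sr-CI and 2049 ± 585 for NimB4 (SD, n = 3). These neighbours did not overlap for Hml, NimC1, eater, He and Sr-CI, and they did for NimB4. The means in c564>+ rest were 1824 ± 376 for Hml, 496 ± 145 for NimC1, 547 ± 193 for eater, 29.2 ± 9.98 for He, 662 ± 161 for Sr-CI and 1128 ± 247 for NimB4 (SD, n = 3). Past c564>Pdm2-RB rest, each group overlapped the next in the order for these 6 genes, apart from the step from c564>Pdm2-RB rest itself for Hml, NimC1, eater and He. Pxn had its own order, with c564>nub-RB gut (654 ± 120) after c564>nub-RB rest and c564>+ rest last (373 ± 115), and every neighbouring group overlapped. The mean log2 signal over all 7 genes was 10.32 to 11.12 in c564>nub-RB rest, 9.38 to 9.92 in c564>Pdm2-RB rest and 8.31 to 9.09 in c564>+ rest, and 7.90 to 8.87 over all gut arrays.

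After the mean of each group was taken away, the genes still moved together from array to array. Over the 10 rest arrays all 21 pairs of genes had a positive Pearson r, from 0.70 to 0.97 with a median of 0.82, and Spearman's rho ran from 0.60 to 0.94. By exact permutation of arrays within groups, adjusted over the 42 pairs of both tissues, 12 pairs had a p under 0.05 by r and 2 by rho. The closest pair was eater and Sr-CI (r = 0.97, permutation p = 0.0012, the smallest that these permutations can give, adjusted p = 0.0365; rho = 0.94, permutation p = 0.0012, adjusted p = 0.0486). Without the 2 arrays farthest from the median, eater and Sr-CI had an r of 0.92, the lowest r of the 21 pairs was 0.47 and the median was 0.71. The count was 0 when any of 7 arrays was left out (c564>nub-RB replicates 1, 2 and 3, c564>Pdm2-RB replicate 1 and c564>+ replicates 1, 3 and 4), and 13 or 14 when any of the others was. In those runs with a count of 0 the median r was 0.79 to 0.88. Leaving out an array also leaves fewer permutations and so raises the smallest p that can be reached. Each gene had an r of 0.85 to 0.93 with the mean of the other 6, a level over 0.8 reached by 1.90% of 16647 tested probes with the mean of the 7, for which the median r was -0.11. Within c564>nub-RB rest, replicates 2 and 4 were above the group mean for Hml, eater, Sr-CI and NimB4, and replicate 3 was the lowest for all 7 genes.

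**Figure D3:**
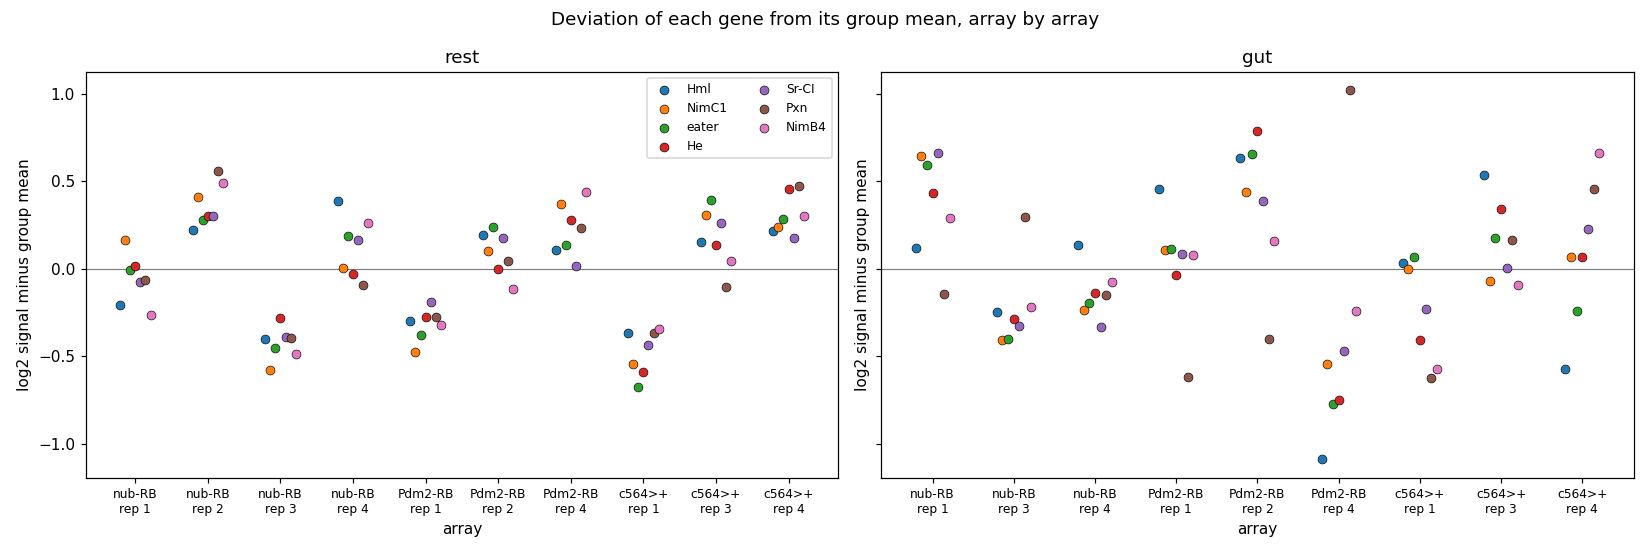
Deviation of the log2 signal of each gene from its group mean, on each array, for rest and for gut. In rest the points of the 7 genes lie close together on each array, and in gut Pxn lies on the opposite side of 0 from most of the others on several arrays.

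In gut the agreement was looser and did not include Pxn. Over the 9 gut arrays, r ran from -0.81 to 0.95 with a median of 0.56, 16 of the 21 pairs were positive, and 4 pairs had an adjusted permutation p under 0.05 by r and 0 by rho. No pair passed without any of 7 arrays (replicates 1, 3 and 4 of c564>nub-RB, 1, 2 and 4 of c564>Pdm2-RB and 1 of c564>+), while 8 passed without c564>+ replicate 3 and 9 without c564>+ replicate 4. In the runs where no pair passed the median r was 0.45 to 0.60, and here too fewer permutations raised the smallest p that could be reached. The pair with the highest r was NimC1 and Sr-CI (r = 0.95, exact permutation p = 0.0278, adjusted p = 0.0528; rho = 0.95, permutation p = 0.0278, adjusted p = 0.0675). The 5 negative pairs were those of Pxn with Hml (r = -0.81, exact permutation p = 0.125, adjusted p = 0.159; rho = -0.62, adjusted p = 0.234), eater, NimC1, He and Sr-CI. Without the 2 arrays farthest from the median, Pxn and Hml had an r of -0.34, so this relation rested on those arrays.

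**Figure D4:**
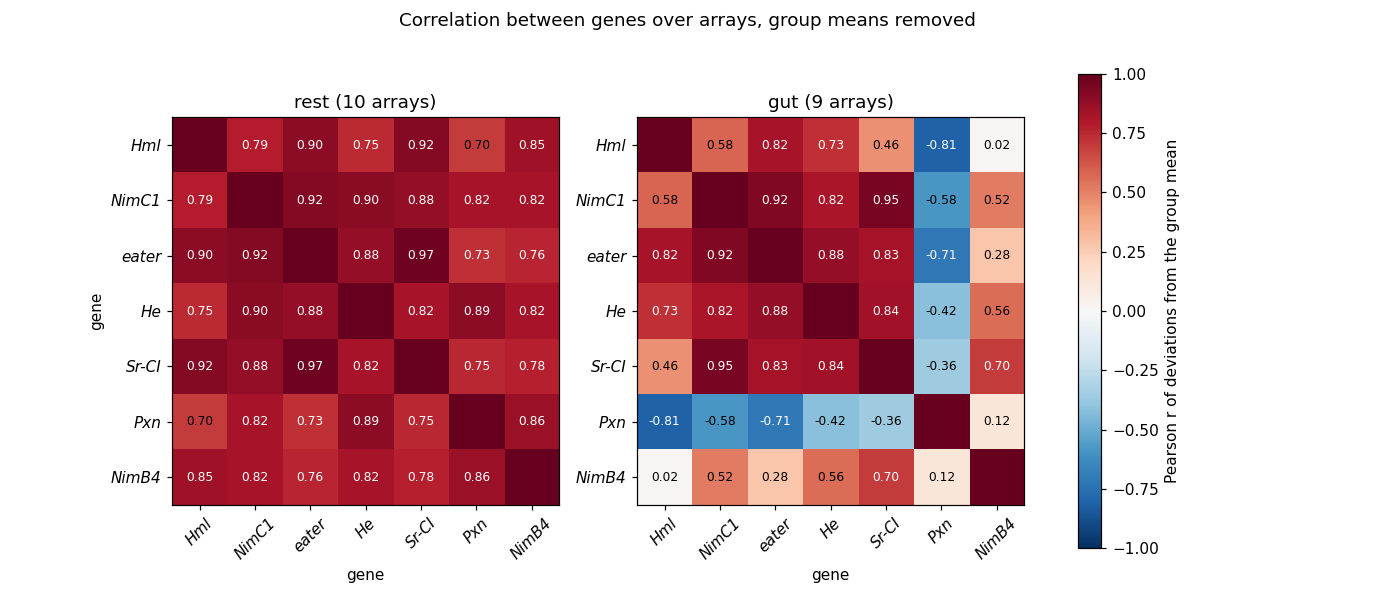
Pearson r between the log2 signals of each pair of genes after removal of group means, for rest (10 arrays) and gut (9 arrays). All 21 pairs are positive in rest, and in gut the pairs with Pxn are negative or near 0.

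The shared deviations were set beside 5 other quantities in each tissue, 10 relations in all. In rest, the mean deviation of the 7 genes went with that of the crystal cell genes (r = 0.92, exact permutation p = 0.0139, adjusted p = 0.0347; rho = 0.76, permutation p = 0.0486) and of the muscle genes (r = 0.89, exact permutation p = 0.0069, adjusted p = 0.0347; rho = 0.81, permutation p = 0.0289). Without the 2 farthest arrays these were 0.80 and 0.77. With the median signal of the array r was 0.37 (adjusted permutation p = 0.658), with digestive enzymes -0.25 and with fat body genes 0.12. In gut, r was 0.87 with crystal cell genes (adjusted permutation p = 0.0347) and 0.81 with digestive enzymes (adjusted permutation p = 0.0347). It was 0.81 with fat body genes (adjusted permutation p = 0.12), -0.05 with muscle genes and -0.08 with the median signal of the array. The crystal cell list holds CG17109, which averaged 16830 in c564>+ gut against 142 in c564>+ rest.

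Over all 19 arrays, where the group differences enter, the mean log2 signal of the 7 genes had its highest correlation with CG4950 (r = 0.992), followed by Karl, a lipocalin gene, with its 2 probes at 0.980 and 0.976, an unnamed probe, A_09_P194140, at 0.977, and NimB5, a secreted Nimrod protein that neighbours NimB4, at 0.974 for both of its probes. Had2, mthl2, lectin-24Db and CG4250 followed, at 0.973, 0.967, 0.967 and 0.963. The arrays fall into groups that differ in level, so these values are a description only. Of 18080 probes, 0.432% had an r over 0.9 and the median r was 0.33. Against the mean of the other 6 genes, r was 0.98 for NimC1 and eater, 0.97 for He, 0.95 for Sr-CI, 0.92 for NimB4, 0.91 for Hml and 0.48 for Pxn.

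The same families held further genes that rose in c564>nub-RB rest. The names of probes came largely from the study's lists of changed genes, so the shares below do not carry over to the genes without a name. Of the Nimrod and Draper family, 7 of 12 genes could be found and all 7 were tested. Against c564>+ rest 5 were called higher, where 3.41% of all tested probes were. The median log2 difference was 2.21, against -0.05 over all tested probes. These counts are not separate from those above, since the list holds NimB4, NimC1 and eater. NimC1 and eater are among the 5 calls, and the median is the value of eater. NimC4, a receptor for dying cells also known as SIMU, averaged 1719 in c564>nub-RB rest against 133 in c564>+ rest (log2 difference 3.66, adjusted p = 0.00216). In gut NimC4 went the other way, at 1092 in c564>nub-RB against 8683 in c564>+ (-3.90, limma, adjusted p = 0.14), and was not called. NimC2 (2.90, adjusted p = 0.00794) and NimB1 (1.38, adjusted p = 0.00219) were called too, while NimB5 had 1.37 (adjusted p = 0.014). NimC2 averaged 505 in c564>nub-RB rest and 68.0 in c564>+ rest, so it entered the test only through c564>nub-RB rest.

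Among scavenger receptors of classes B and C, 7 of 15 genes were found, 4 were tested and 2 were called higher, Sr-CI and Sr-CIV (1.98, adjusted p = 0.00412). Sr-CIV averaged 482 in c564>nub-RB rest and 120 in c564>+ rest, so it too entered the test only through c564>nub-RB rest. CG2736 was at 10690 in c564>nub-RB rest and 11390 in c564>+ rest (-0.14, adjusted p = 0.717). Of the basement membrane and matrix genes, 3 of 15 were found and 2 were called higher, the papilin gene Ppn (1.58, adjusted p = 0.00667) and the matrix metalloproteinase Mmp1 (1.25, adjusted p = 0.00668), beside the 1.28 of Pxn. From the clotting list 2 of 7 were found and both were called, Hml and PPO2, a crystal cell prophenoloxidase (2.80, adjusted p = 0.00447). Of 16 other plasmatocyte genes 3 were found and 0 called, although Idgf1 (adjusted p = 0.0132) and DNaseII (1.63, adjusted p = 0.0155) missed the rate narrowly, and NFAT had -0.37.

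The lists of other cell types gave 4 of 4 found crystal cell genes called higher in c564>nub-RB rest, led by PPO1 (3.02, adjusted p = 0.00184). Among them Ser averaged 132 in c564>nub-RB rest and 33.0 in c564>+ rest, so it entered the test only through c564>nub-RB rest. In c564>+ flies, 2 of the 4 were called lower in rest than in gut. There CG17109 averaged 16830 in gut against 142 in rest, and Ser 329 in gut. Of 5 tested fat body genes 3 were called higher. They were the transferrin Tsf1 (2.45, adjusted p = 0.00187) and the larval serum proteins Lsp1gamma (5.17) and Lsp1beta (4.66), while to had -1.72 (adjusted p = 0.0187). In c564>+ rest Lsp1gamma averaged 48.2 and Lsp1beta 92.7, so both also entered the test only through c564>nub-RB rest. The 4 muscle genes had 1.61 to 3.41 with 0 called, and the 21 tested digestive enzyme genes had a median of -3.80 with 1 called lower, LysP. LysP averaged 9610 in c564>+ rest and 5.74 in c564>+ gut, so this call was not of an enzyme gene high in gut. In c564>Pdm2-RB rest 0 genes of any list were called. The median was 1.08 for the Nimrod and Draper family, which includes NimB4, NimC1 and eater. It was 1.47 for crystal cell genes, 0.92 for muscle genes and -4.72 for digestive enzymes, against 0.03 over all tested probes.

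**Figure D5:**
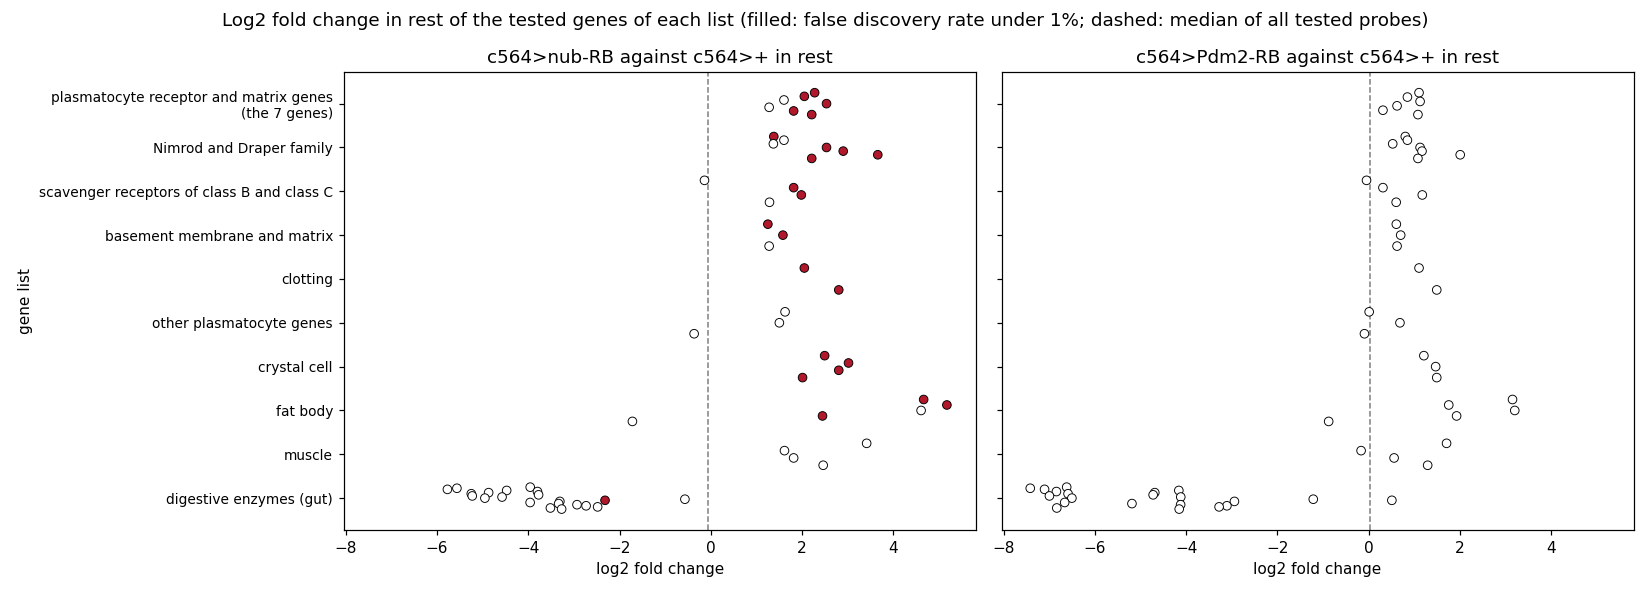
Log2 fold changes in rest of the named genes of each list, for c564>nub-RB and c564>Pdm2-RB against c564>+, a point per gene. The c564>nub-RB points of the Nimrod and crystal cell lists lie above 1 and those of digestive enzymes lie below 0.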

How the data were processed

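RNA of rest or gut, from independent pools of flies within a group, was labelled with Cy3 and hybridised to one-colour Agilent arrays. The deposited scanner files hold processed intensity values, background-subtracted by the authors with Agilent Feature Extraction 10.7.3.1 (per the labels). The authors' normalized table, quantile-normalized in Partek, holds linear intensity values too, and 99.92% of them lay within 0.01 log2 of those computed here.

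Spots of a probe, without outlier spots, were averaged and the 19 arrays were quantile-normalized together in R 4.3.3, then put on the log2 scale. limma 3.58.1 (lmFit, eBayes) was run per comparison on its own arrays, on probes with a mean signal above 130 in at least 1 group, at a Benjamini-Hochberg rate of 1%, after a test on simulated data. Pearson and Spearman correlations used exact, two-sided permutations of arrays within groups. Array numbers limit the precision. The named genes were the 7 members, their other probes, genes of the lists and the 10 probes most like the members' mean. Members and lists were chosen with earlier results of these data known. Names came from the study's tables and RefSeq (1451 probes, 1049 genes). Alternatives were other scaling, background correction, filters, blocks, tests and left-out arrays. Arrays were not paired by number: 8 of 24 same-numbered pairs had r above 0.1, and of the comparisons only c564>Pdm2-RB against c564>+ in gut, with 2 pairs, had it in every pair. Builds of array and annotation differed, so no coordinates are given.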

Additional observations from a re-analysis of the deposited data

Results flagged for a closer look

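NimC1 was marked for a closer look because the effect of nub-RB differed between rest and gut by the genotype by tissue term, which was 2.74 on the log2 scale (limma, adjusted p = 0.0096). Its log2 fold change of c564>nub-RB against c564>+ was 2.53 in rest, higher on 4 of 4 arrays than on any control array, and -0.21 in gut, where the arrays overlapped. The only group of 4 arrays, c564>nub-RB rest, held no outlying array for any of the 7 genes.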

How the results depend on the processing

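The 5 calls in c564>nub-RB rest against c564>+ rest became 3 with no signal threshold, and leaving out 1 array gave 1 to 5. They became 0 with the methods' t-test as rerun here (after Benjamini-Hochberg), which called 86 of all 16486 tested probes. That is fewer than the study reported as changed in rest. For c564>nub-RB against c564>Pdm2-RB in rest the 1 call became 0 with no threshold, with probes well above background, with scan date as a block and with the methods' t-test, and 4 at a 5% rate; leaving out 1 array gave 0 to 1. For rest against gut in c564>Pdm2-RB the 3 calls became 0 with scaling to the 75th percentile and with the methods' t-test, and 5 with all groups in 1 fit, with scan date as a block and at a 5% rate; leaving out 1 array gave 0 to 3. The tissue difference of the nub-RB effect, with 1 call, had 4 with scaling to the 75th percentile, 6 with normexp background correction, with slide as a random block and at 5%, 5 with scan date as a block, 3 with all groups in 1 fit, 0 with no threshold, with probes well above background and with the methods' t-test, and 0 to 6 with 1 array left out. Correlated pairs in gut, 4 of 21, became 2 with normexp, and 0 to 9 with 1 array left out. Those in rest, 12 of 21, became 0 to 14 with 1 array left out. Fewer arrays leave fewer permutations, so these counts also depend on the smallest p that can be reached. The causes were not tested.

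The numbers of the replicates were not shown to pair the arrays. With the replicate block the calls became 0 in c564>nub-RB against c564>+ in rest, 0 in c564>nub-RB against c564>Pdm2-RB in rest, 1 in rest against gut of c564>Pdm2-RB and 0 for the tissue difference of nub-RB, and Hml in c564>nub-RB against c564>Pdm2-RB gut turned to 0.05 (0.0508).

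Under these alternatives no difference between genotypes in rest changed direction, but within single slides (1 array against 1) Sr-CI had -0.05 and Pxn -0.12 in c564>Pdm2-RB against c564>+, and NimB4 -0.18 in c564>nub-RB against c564>Pdm2-RB. In gut, scan date as a block turned c564>nub-RB against c564>+ for Pxn to -0.0418, c564>Pdm2-RB against c564>+ to -0.14 for Hml and 0.063 for Pxn, and c564>nub-RB against c564>Pdm2-RB to 0.696 for Hml and -0.403 for Pxn. With 1 array left out, c564>nub-RB against c564>+ in gut ran from -0.54 to 0.0184 for Hml and from -0.0418 to 0.50 for Pxn, c564>Pdm2-RB against c564>+ in gut from -0.18 to 0.68 for Hml, and c564>nub-RB against c564>Pdm2-RB in gut from -0.20 to 0.51 for eater. For rest against gut, scaling to the 75th percentile gave -0.185 for Pxn in c564>Pdm2-RB and -0.385 for Sr-CI in c564>+, and scan date as a block gave 0.0902 for NimB4 in c564>+; with 1 array left out, c564>+ ran from -0.37 to 0.0573 for NimC1, -0.28 to 0.257 for eater, -0.41 to 0.204 for NimB4 and -0.10 to 0.25 for Sr-CI. None of these passed the threshold where a test was made. Of the values for single genes under the alternatives, 1102 kept direction and side of the threshold, 49 passed it newly, 73 no longer passed and 24 turned.

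The share of higher among called probes of c564>nub-RB gut against c564>+ gut was 53.0%, and 40.3% with scaling to the 75th percentile; for rest against gut it was 62.4% and 50.7% in c564>Pdm2-RB, and 60.6% and 49.4% in c564>+. For the tissue difference of Pdm2-RB it was 71.4%, and 58.5% with normexp. A random block for slide was fitted for 4 comparisons, since elsewhere too few arrays shared a slide.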
